A study of Mus musculus with 19 samples.

Results

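The oligodendrocyte-associated microRNAs miR-219, miR-338 and miR-32 were followed in small RNA libraries of mouse hippocampal CA1. The names were taken by their start (mmu-miR-219-, mmu-miR-338- and mmu-miR-32-), which gave 7 of the 1148 mature miRNA names listed. These are miR-338-3p and miR-338-5p, miR-219-2-3p, miR-219-1-3p and miR-219-5p, and miR-32-5p and miR-32-3p, written here without the mouse prefix. All 7 had counts, and 6 of them passed the filter on low counts that left 509 names to test. miR-32-3p did not pass it.

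CA1, the hippocampal field that carries the main output of the hippocampus, was microdissected from WT mice whose strain label reads C57B/6JRj. The design compares aged animals given a drug, aged animals given its carrier and young animals given the carrier. In the aged SAHA group (6 libraries) animals of 20 months received SAHA by mouth, as 0.67 g per L of water with 18 g of cyclodextrin, for 4 weeks. SAHA, also called vorinostat, inhibits histone deacetylases. The aged vehicle group (5 libraries) consisted of animals of 20 months, and the young vehicle group (8 libraries) of animals of 3 months, each given cyclodextrin in water at the same 18 g per L. The aged vehicle animals received it for 4 weeks as well, and no duration is stated for the young animals. The labels give no sex and no sequencing batch, and no source used here says that each library is a separate animal, so p-values measure the spread between these libraries, part of which may be technical.

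Oligodendrocytes are the myelin-forming cells of the central nervous system, and in mice lacking the miRNA-processing enzyme Dicer in this lineage their maturation fails. In mouse and zebrafish, miR-219 and miR-338 rise as precursor cells differentiate and repress factors that hold them in the precursor state, among them Pdgfra, Sox6 and Hes5. miR-32 is also found in mouse oligodendrocytes, where it is reported to act on the solute carrier gene Slc45a3 and on myelin formation. A miRNA precursor is cut into a 5p and a 3p arm, and a miRNA recognises its targets mainly through its seed, bases 2 to 8.

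The mature sequences are shown because the seed separates the arms of each hairpin. They come from RefSeq (GRCm38.p6), which matched 6 of the 7 names, and capitals mark the seed.

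miR-338-3p: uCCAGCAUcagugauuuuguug
miR-338-5p: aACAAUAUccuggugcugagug
miR-219-5p: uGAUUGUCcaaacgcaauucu
miR-219-1-3p: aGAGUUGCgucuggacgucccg
miR-32-5p: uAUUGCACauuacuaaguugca
miR-32-3p: cAAUUUAGugugugugauauu

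These 6 seeds all differ. miR-338-3p lies at chr11:120014781-120014802 and miR-338-5p at chr11:120014816-120014837, both on the minus strand, within an intron of Aatk, a gene for a membrane-bound kinase of neural tissue. miR-32-5p (chr4:56895272-56895293) and miR-32-3p (chr4:56895232-56895252), also on the minus strand, lie in an intron of Tmem245, a transmembrane protein gene. Both host genes were read from GENCODE M21.

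miR-219-5p is made from 2 loci, whose hairpins are shown because 5p reads cannot be assigned to one of them. Capitals mark the mature sequences that the table places in each hairpin.

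Mir219a-1: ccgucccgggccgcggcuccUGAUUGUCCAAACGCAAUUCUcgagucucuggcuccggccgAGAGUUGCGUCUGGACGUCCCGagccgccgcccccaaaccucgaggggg
Mir219a-2: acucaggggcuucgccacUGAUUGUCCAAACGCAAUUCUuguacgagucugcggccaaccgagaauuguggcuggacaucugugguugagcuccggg

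Both hairpins hold the same 5p stretch, while the 3p names separate the loci. Mir219a-1 (chr17:34024983-34025092, minus strand) overlaps an exon of the lincRNA Gm26940 and lies 303 bases from Ring1, a Polycomb gene. Mir219a-2 (chr2:29845631-29845727, minus strand) lies in no annotated gene, and Urm1, the nearest, is 629 bases away. Annotated hairpins on the opposite strand overlap 3 of the loci, by 60 bases at Mir219a-1 (Mir219c), 65 at Mir219a-2 (Mir219b) and 87 at Mir338 (Mir3065). The labels do not say whether counting used the strand, and both miR-3065 names were listed with 0 counts in every library.

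Levels are counts scaled to a common library total (CPM) after TMM scaling, and the mature sequences printed above are 21 or 22 bases long, so CPM were set side by side without a length correction. miR-338-3p led with 3476 CPM over the 19 libraries and ranked 39th of all names. miR-219-2-3p followed with 632 CPM (98th), miR-338-5p with 237 CPM (159th) and miR-219-5p with 62.0 CPM (236th). The rest were low, at 13.7 CPM for miR-32-5p (363rd), 5.42 CPM for miR-219-1-3p (426th) and 1.06 CPM for miR-32-3p (550th). The ranges of neighbours in this order did not overlap over the 19 libraries. The 3p arm was thus the abundant one at Mir338 and the 5p arm at Mir32, and the copy Mir219a-2 gave nearly all 3p reads of miR-219.

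Total counts were 4211365 to 5410804 in aged SAHA libraries, 4642434 to 5249168 in aged vehicle libraries and 3585489 to 6808281 in young vehicle libraries. The 7 names together took 0.404% to 0.780% of the counts of aged SAHA libraries, 0.412% to 0.564% of aged vehicle libraries and 0.343% to 0.425% of young vehicle libraries. The library aged SAHA 1 stood apart: it gave the 0.780% and had the highest level of 5 members among all 19 libraries. Against the mean of the other 18 its level was 3.09 times as high for miR-219-5p, 1.94 for miR-338-3p, 1.89 for miR-219-2-3p, 1.84 for miR-32-5p and 1.61 for miR-338-5p, but 0.736 for miR-219-1-3p and 0.901 for miR-32-3p. Of all 387 names with a mean of at least 10 CPM, 49 (12.7%) were highest in this library. The members' results are therefore given with and without it. In bulk tissue fewer cells of a type and less RNA per cell cannot be told apart.

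miR-338-3p, the arm with the established role in oligodendrocyte maturation, ranged over 2930, 3362 and 6412 CPM (lowest, median and highest) in aged SAHA libraries. In aged vehicle libraries it was 3662, 4503, 3619, 3755 and 3218 CPM, while young vehicle libraries spanned 2574, 2913 and 3712 CPM. Each aged vehicle library lay above the young median, and the groups overlapped. The group means were 3890 ± 1313 CPM in aged SAHA (SD, n = 6), 3751 ± 467 CPM in aged vehicle (SD, n = 5) and 2993 ± 365 CPM for young vehicle (SD, n = 8).

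miR-338-5p, the less abundant arm of the same hairpin, ranged over 201, 217 and 370 CPM in aged SAHA libraries. It was 255, 279, 215, 245 and 216 CPM in aged vehicle libraries, and 207, 221 and 252 CPM in young vehicle libraries. These groups overlapped over most of their range, and the 370 CPM was again aged SAHA 1. The mean was 251 ± 67.6 CPM in aged SAHA (SD, n = 6), 242 ± 27.3 CPM in aged vehicle (SD, n = 5) and 222 ± 14.3 CPM for young vehicle (SD, n = 8).

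miR-219-2-3p, the abundant 3p arm of miR-219, ranged over 531, 744 and 1144 CPM in aged SAHA libraries. In aged vehicle libraries it was 543, 765, 504, 588 and 562 CPM, while young vehicle libraries spanned 455, 519 and 628 CPM. Of the 6 aged SAHA libraries, 5 lay above every young vehicle library, and the sixth, aged SAHA 4, was within the young range. The means were 805 ± 221 CPM in aged SAHA (SD, n = 6), 593 ± 101 CPM in aged vehicle (SD, n = 5) and 528 ± 51.9 CPM for young vehicle (SD, n = 8).

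miR-219-5p, the arm shared by both loci, ranged over 46.6, 74.1 and 173 CPM in aged SAHA libraries. It was 52.4, 75.7, 48.7, 57.3 and 49.8 CPM in aged vehicle libraries, and 29.9, 49.7 and 70.7 CPM in young vehicle libraries. The groups overlapped, and the spread was wide: the mean was 82.6 ± 46.1 CPM in aged SAHA (SD, n = 6), 56.8 ± 11.1 CPM in aged vehicle (SD, n = 5) and 49.8 ± 17.4 CPM for young vehicle (SD, n = 8).

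miR-219-1-3p, the 3p arm of the Mir219a-1 copy, rested on 16 to 52 counts per library. It ranged over 3.38, 4.41 and 6.86 CPM in aged SAHA libraries, was 4.89, 4.99, 3.94, 6.00 and 5.08 CPM in aged vehicle libraries and ranged over 4.58, 6.02 and 7.99 CPM in young vehicle libraries. It was the one tested member whose mean was lower in both aged groups, at 4.81 ± 1.35 CPM in aged SAHA (SD, n = 6), 4.98 ± 0.732 CPM in aged vehicle (SD, n = 5) and 6.16 ± 1.28 CPM for young vehicle (SD, n = 8).

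miR-32-5p rested on 34 to 125 counts per library. It ranged over 11.4, 15.03 and 24.1 CPM in aged SAHA libraries, was 14.9, 16.2, 13.3, 14.2 and 12.0 CPM in aged vehicle libraries and ranged over 9.07, 12.0 and 14.0 CPM in young vehicle libraries. The groups overlapped, with the 3 lowest libraries all young. miR-32-3p, its partner arm, had 1 to 12 counts per library and averaged 1.10 ± 0.642 CPM in aged SAHA (SD, n = 6), 1.34 ± 0.361 CPM in aged vehicle (SD, n = 5) and 0.868 ± 0.615 CPM for young vehicle (SD, n = 8), a depth that does not allow a comparison.

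**Figure D1:**
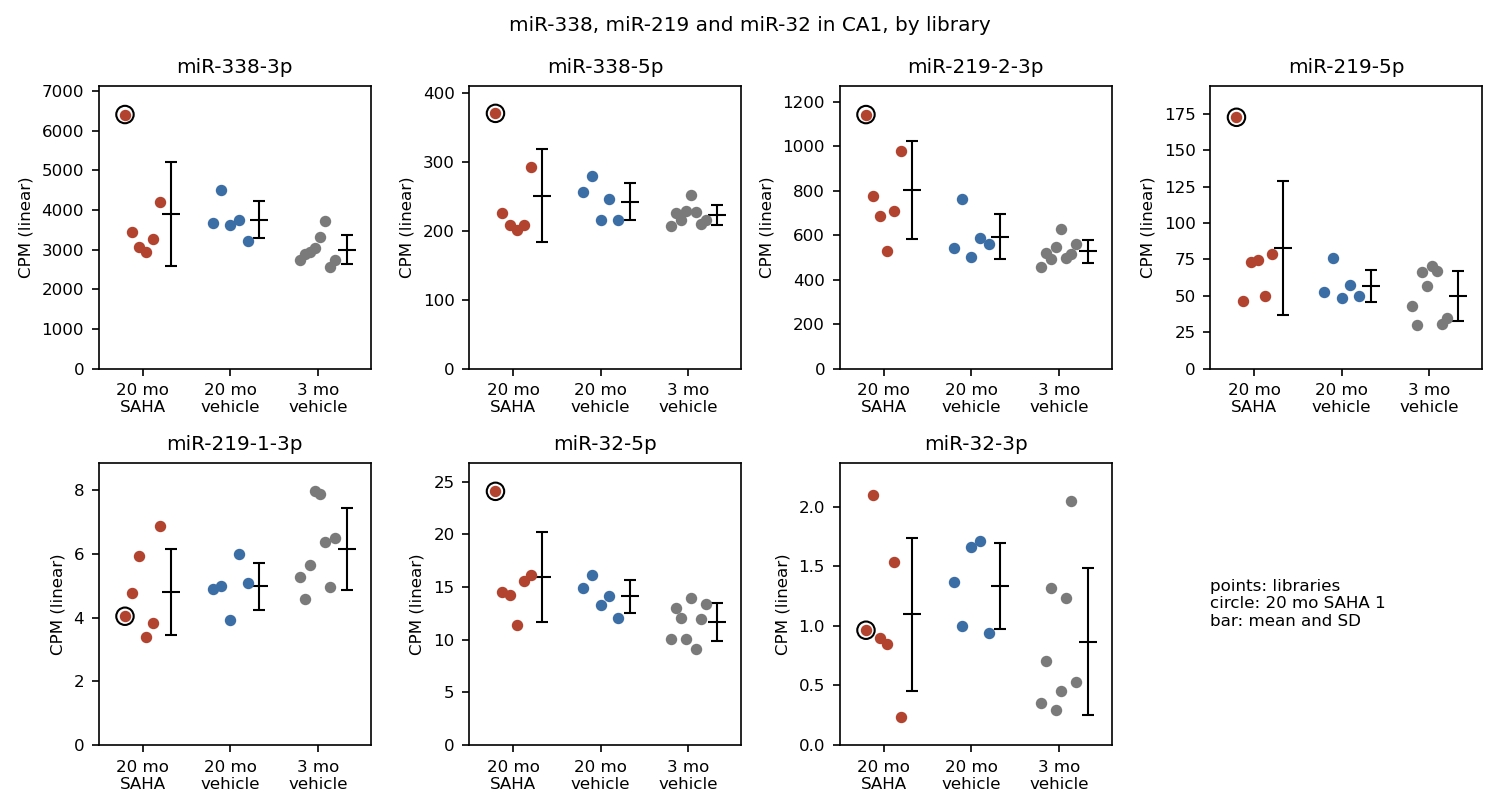
CPM of the 7 names in each library (points) on linear axes from 0, with the mean and SD of each group; the circled point is aged SAHA 1. miR-338-3p averages 3890, 3751 and 2993 CPM in aged SAHA, aged vehicle and young vehicle, and aged SAHA 1 is the highest point for 5 of the 7 names.

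With age, no member passed the test. In the comparison of aged with young vehicle libraries, edgeR's quasi-likelihood test called 11 of 509 names (2.16%), 1 higher (0.196%) and 10 lower (1.96%), and 0 of the 6 tested members. At an unadjusted p under 0.05 there were 80 names, 1 of them a member; DESeq2 (3.93% of names called) and limma-voom also called 0 members. That member was miR-338-3p, with a log2 fold change of 0.33 ± 0.15 (SE), a 95% interval of 0.01 to 0.64 and an edgeR adjusted p of 0.276. The log2 fold changes of the others were 0.26 ± 0.15 for miR-32-5p, 0.19 ± 0.30 for miR-219-5p, 0.17 ± 0.14 for miR-219-2-3p, 0.12 ± 0.12 for miR-338-5p and -0.30 ± 0.18 for miR-219-1-3p, with edgeR adjusted p of 0.385 to 0.799. Thus 5 of 6 were positive with a median of 0.18, beside 49.1% positive and a median of -0.003 over all tested names. Without aged vehicle 2 the log2 fold changes were 0.07 for miR-219-2-3p, 0.08 for miR-219-5p and 0.08 for miR-338-5p. Aged SAHA 1 is in neither group but enters through the filter, the scaling and the shared estimate of spread. Without it the fold change of miR-338-3p was 0.33 ± 0.09 with an edgeR adjusted p of 0.0521, and 2.77% of 506 names were called. Fitted on these groups alone, miR-338-3p passed with an edgeR adjusted p of 0.0418, where 19 names were called. Without aged SAHA 1 and young vehicle 6 it passed with 0.00882, where 18 names were called. That pair was left out with earlier results known. Young vehicle 6 held the highest young value of miR-338-3p (3712 CPM), so leaving it out widens the difference by construction.

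Under SAHA, miR-219-2-3p came closest to a call. In the comparison of aged SAHA with aged vehicle libraries, edgeR called 22 of 509 names (4.32%), 6 higher (1.18%) and 16 lower (3.14%), and 0 of the 6 members. At an unadjusted p under 0.05 there were 99 names, among them 1 member, miR-219-2-3p. Its log2 fold change was 0.44 ± 0.15 (SE), with a 95% interval of 0.14 to 0.75 and an edgeR adjusted p of 0.0854. DESeq2, which called 9.04% of names, called it with an adjusted p of 0.0387, and limma-voom called 0 members. In edgeR the adjusted p was 0.0376 without aged vehicle 2, 0.0174 without aged SAHA 4 and 0.151 without aged SAHA 1, where the fold change was 0.31 ± 0.13 and 6.52% of names were called.

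The other members showed smaller or less certain differences under SAHA. The log2 fold change was 0.54 ± 0.32 for miR-219-5p, with an edgeR adjusted p of 0.388, and 0.18 without aged SAHA 1. It was 0.18 ± 0.16 for miR-32-5p, with an adjusted p of 0.595, and 0.03 without aged SAHA 1. For miR-338-3p and miR-338-5p it was 0.05 ± 0.16 and 0.05 ± 0.13, with intervals of -0.28 to 0.39 and -0.21 to 0.31, and without aged SAHA 1 the signs turned, to -0.15 and -0.10. The value for miR-219-1-3p was -0.06 ± 0.20. The median over the members was 0.12, beside -0.008 over all names.

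Aged SAHA against young vehicle, which joins both differences, was the comparison in which members passed. edgeR called 71 of 509 names (13.9%), 27 higher (5.3%) and 44 lower (8.64%), and 2 of 6 members, both higher. miR-219-2-3p rose by 0.61 ± 0.13 on the log2 scale (95% interval 0.34 to 0.88, edgeR adjusted p = 0.00309) and was above the young mean in all 6 aged SAHA libraries. Without aged SAHA 1 the value was 0.48 ± 0.12 with an edgeR adjusted p of 0.00675, where 15.4% of names were called. miR-32-5p rose by 0.44 ± 0.14 (95% interval 0.15 to 0.73, edgeR adjusted p = 0.0363). Its adjusted p was 0.102 without aged SAHA 1 (0.29 ± 0.12), and it also missed the threshold, at 0.0531 to 0.0661, when any one of aged SAHA 6 and young vehicle 1, 3, 4 or 6 was left out.

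The remaining members of this comparison did not pass in edgeR. The log2 fold changes were 0.73 ± 0.28 for miR-219-5p, 0.38 ± 0.14 for miR-338-3p, 0.17 ± 0.11 for miR-338-5p and -0.35 ± 0.17 for miR-219-1-3p, with edgeR adjusted p of 0.0854, 0.0837, 0.299 and 0.164. DESeq2, which called 20.2% of names, called miR-219-5p at 0.76 (adjusted p = 0.0492) and miR-338-3p at 0.40 (adjusted p = 0.0331). Without aged SAHA 1, edgeR put miR-219-5p at 0.37, miR-338-3p at 0.18, miR-338-5p at 0.03 and miR-219-1-3p at -0.31. Without aged SAHA 4, miR-338-3p passed, at 0.46 with an edgeR adjusted p of 0.0287, and scaled by library size only it passed at 0.41 with 0.0276. The 3 comparisons share libraries in pairs, so their values for a member are not independent.

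In none of the 3 comparisons did the CPM of a tested member separate the groups fully. Over all 509 names, the groups did not overlap for 0.982% (higher) and 2.16% (lower) between aged and young vehicle, 1.57% and 3.34% between aged SAHA and aged vehicle, and 0.982% and 2.55% between aged SAHA and young vehicle.

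**Figure D2:**
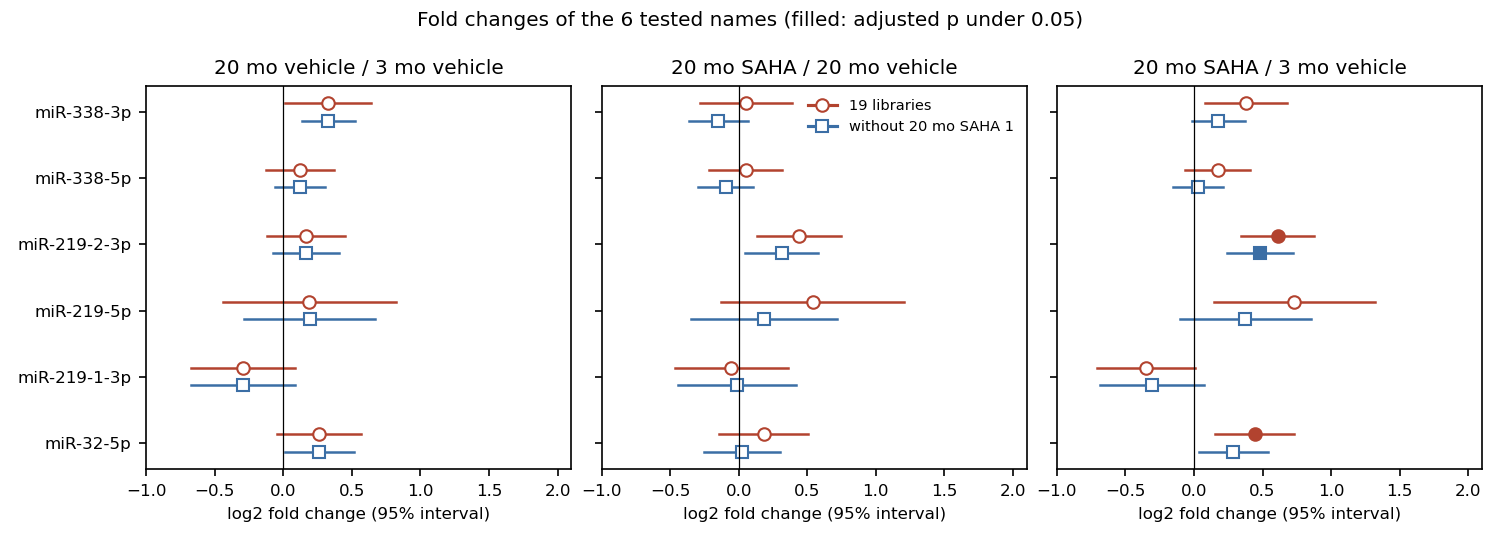
Log2 fold changes (points) with 95% intervals (lines) of the 6 tested names in the 3 comparisons, from all 19 libraries (circles) and without aged SAHA 1 (squares); filled symbols have an adjusted p under 0.05. Only miR-219-2-3p (0.61 and 0.48) and, with all libraries, miR-32-5p (0.44) are filled, both in aged SAHA against young vehicle.

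Summing arms and copies by family left 324 units to test, of which edgeR called 3.09% in the age comparison, 3.09% in that of the drug with its carrier in aged animals and 23.8% between aged SAHA and young vehicle. For aged SAHA against young vehicle the log2 fold changes were 0.63 ± 0.13 for miR-219, 0.46 ± 0.13 for miR-32 and 0.38 ± 0.14 for miR-338, with edgeR adjusted p of 0.00161, 0.0202 and 0.0475. For aged SAHA against aged vehicle the miR-219 sum gave 0.46 ± 0.15 with an edgeR adjusted p of 0.0724, and for aged against young vehicle the miR-338 sum gave 0.31 ± 0.14 with an adjusted p of 0.226. Without aged SAHA 1, a choice made after the values were seen, 8.7%, 6.52% and 20.5% of 322 units were called in the same order. The miR-219 sum then still passed against young vehicle (0.46 ± 0.11, edgeR adjusted p = 0.00492). The sums of miR-32 (0.29 ± 0.11) and miR-338 (0.16 ± 0.09) then did not, with edgeR adjusted p of 0.0705 and 0.207, and for SAHA the miR-219 sum was 0.29 ± 0.12 with an adjusted p of 0.196. The miR-338 sum for age passed without that library, at 0.32 ± 0.09 with an edgeR adjusted p of 0.0388. The sums are led by miR-338-3p, miR-219-2-3p and miR-32-5p.

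Ratios of counts within a library do not depend on library scaling and compare arms and copies directly. The Mir219a-1 copy fell relative to the Mir219a-2 copy in aged SAHA and in aged vehicle against young vehicle libraries. The ratio of miR-219-1-3p to miR-219-2-3p averaged 0.00632 ± 0.00172 in aged SAHA (SD, n = 6), 0.00869 ± 0.00141 in aged vehicle (SD, n = 5) and 0.0118 ± 0.00186 for young vehicle (SD, n = 8). Its values were 0.00362 (lowest), 0.00642 (median) and 0.00880 (highest) in aged SAHA libraries, and 0.00897, 0.0118 and 0.0149 in young vehicle libraries, so these groups did not overlap. Of single names, 0.982% (higher) and 2.55% (lower) separated these groups fully, and how many ratios of names do so was not counted. In aged vehicle libraries the ratio was 0.00917, 0.00666, 0.00802, 0.0104 and 0.00919.

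The log2 difference in this ratio was -0.94 for aged SAHA against young vehicle, where the two-sided exact permutation test gave a p of 0.000666, the smallest the design allows, and an adjusted value of 0.00599 over 9 ratio tests. For aged against young vehicle it was -0.44 (exact p = 0.0109, adjusted 0.0350), and for aged SAHA against aged vehicle -0.49 (exact p = 0.0390, adjusted 0.0701). The first of these passed whichever library was left out, but with group medians in place of means it was -0.87 with an adjusted exact p of 0.0599. The age difference was -0.36 with medians, with an adjusted exact p of 0.168. With means it missed the threshold, at adjusted exact p of 0.0511 to 0.0848, when aged vehicle 2 or 3, or young vehicle 1, 4, 5 or 8, was omitted, while the SAHA difference passed without aged SAHA 3, with an adjusted exact p of 0.0286.

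The balance of the miR-338 arms differed with age and not detectably with SAHA. The ratio of miR-338-3p to miR-338-5p averaged 15.4 ± 1.09 in aged SAHA (SD, n = 6), 15.5 ± 0.992 in aged vehicle (SD, n = 5) and 13.4 ± 1.24 for young vehicle (SD, n = 8). Libraries gave 14.4, 15.1 and 17.3 (lowest, median and highest) in aged SAHA, 14.3, 16.1, 16.8, 15.3 and 14.9 in aged vehicle and 12.3, 13.2 and 16.3 in young vehicle. All 11 aged libraries lay above 7 of the 8 young ones, and young vehicle 6 held the 16.3.

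The log2 difference was 0.21 for aged against young vehicle (exact permutation p = 0.0155, adjusted 0.0350) and 0.19 for aged SAHA against young vehicle (exact p = 0.0120, adjusted 0.0350). It was -0.01 for aged SAHA against aged vehicle (exact p = 0.810, adjusted 0.911). With group medians both differences missed the threshold, with adjusted exact p of 0.176 and 0.168. The age difference missed the threshold when any one of aged vehicle 2, 3 and 4 and of young vehicle 1, 2, 4, 5, 7 and 8 was omitted, with adjusted exact p of 0.0511 to 0.0857. The other was lost, with adjusted exact p of 0.0511 to 0.0629, without young vehicle 1, 2, 4, 5, 7 or 8 or aged SAHA 1, 2 or 5.

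The ratio of miR-219-2-3p to miR-219-5p averaged 11.1 ± 4.05 in aged SAHA (SD, n = 6), 10.5 ± 0.464 in aged vehicle (SD, n = 5) and 11.8 ± 4.31 for young vehicle (SD, n = 8). The adjusted exact permutation p was 0.911 to 1.0 in the 3 comparisons. Aged vehicle libraries spanned 10.1 to 11.3, whereas aged SAHA libraries spanned 6.62 to 16.7 and young vehicle libraries 7.41 to 17.3. The ratio of miR-32-5p to miR-32-3p was not tested, because the 3p arm averaged 5.53 counts, under the minimum of 10.

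miR-219-2-3p was also set against miR-338-3p, a ratio chosen after their values were seen, so it is described without a test. miR-219-2-3p amounted to 0.178, 0.220 and 0.233 of miR-338-3p (lowest, median and highest) in aged SAHA libraries. The ratio was 0.148, 0.170, 0.139, 0.157 and 0.175 in aged vehicle libraries and 0.134, 0.180 and 0.205 in young vehicle libraries. Every aged SAHA library lay above every aged vehicle library. Of single names, 1.57% (higher) and 3.34% (lower) separated these groups fully, and how many ratios of names do so was not counted.

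The means of this ratio were 0.210 ± 0.0237 in aged SAHA (SD, n = 6), 0.158 ± 0.0147 in aged vehicle (SD, n = 5) and 0.178 ± 0.0226 for young vehicle (SD, n = 8). The log2 difference was 0.41 for aged SAHA against aged vehicle, and 0.45 without aged SAHA 1. It was 0.24 for aged SAHA against young vehicle and -0.17 for aged against young vehicle.

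**Figure D3:**
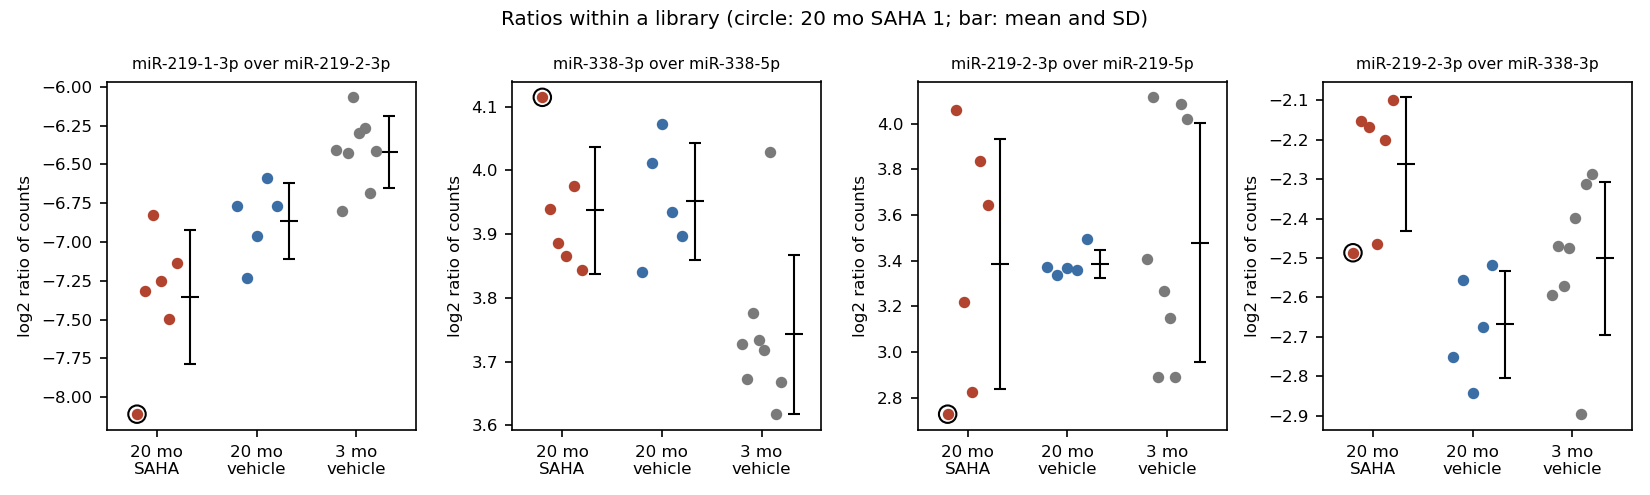
Log2 ratios of counts within each library (points) for 4 pairs of names, with the mean and SD of each group; the circled point is aged SAHA 1. In the first panel the 6 aged SAHA libraries lie below the 8 young vehicle libraries, and in the last panel they lie above the 5 aged vehicle libraries. The ratio of the last panel was chosen after its values were seen. How many ratios of names separate groups in this way was not counted.

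Levels of the 5 members with at least 10 CPM moved together between libraries. All 10 pairs correlated over the 19 libraries, with Pearson's r of log2 CPM of 0.528 to 0.902 and adjusted permutation p of at most 0.0253; Spearman's rho ran from 0.384 to 0.812, with adjusted permutation p under 0.05 for 7 pairs. The 2 arms of miR-338 gave r = 0.902 and rho = 0.742 (adjusted permutation p = 5e-05 and 0.00235). miR-219-2-3p and miR-32-5p, which lie on different chromosomes, gave r = 0.852 and rho = 0.812 (adjusted permutation p = 5e-05 and 0.0006). For both r the raw permutation p was 1e-05, the smallest these permutations can give.

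Each pair was also taken without the 2 libraries farthest from the median of 1 of its members. That member was the earlier in the order miR-219-2-3p, miR-219-5p, miR-338-3p, miR-338-5p and miR-32-5p. Aged SAHA 1 was left out for every pair, with aged SAHA 6, young vehicle 2 or aged vehicle 2 as the other. Only the pairs named above kept an adjusted permutation p under 0.05, with r of 0.726 and 0.739 and an adjusted permutation p of 0.00415 each. The other 8 pairs, at r of 0.172 to 0.574, then missed the threshold. The closest of these was miR-219-5p with miR-338-3p, at r = 0.574 with an adjusted permutation p of 0.0520. With group means removed, 9 of 10 pairs passed, and miR-219-5p with miR-32-5p did not (r = 0.339, adjusted permutation p = 0.156). The points share the scaling of their library, and the arms of miR-338 share a precursor.

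**Figure D4:**
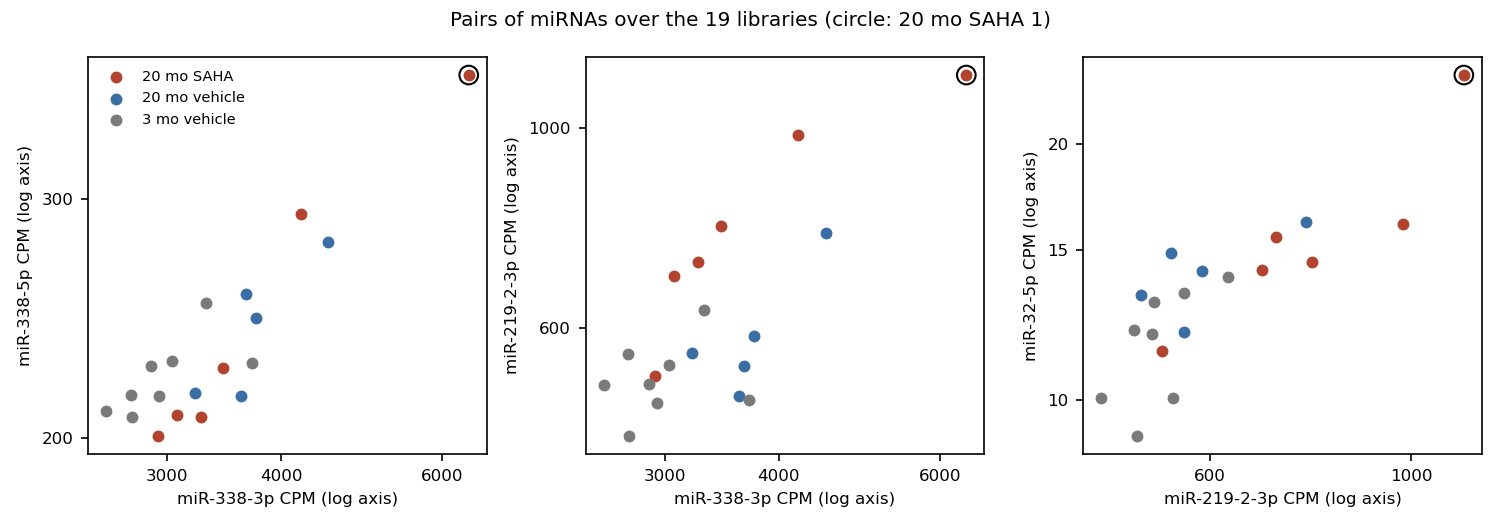
CPM of 3 pairs of names over the 19 libraries on log axes, coloured by group, with aged SAHA 1 circled. The arms of miR-338 (left, r = 0.902) keep their relation without the circled library and aged vehicle 2. So do miR-219-2-3p and miR-32-5p (right, r = 0.852) without the circled library and aged SAHA 6. Without these same libraries, aged SAHA 1 and 6, miR-338-3p with miR-219-2-3p (middle) falls to r = 0.479.

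Among 382 other names of at least 10 CPM, the closest to miR-338-3p across the 19 libraries, with group means removed, were miR-151-3p (r = 0.930), miR-21-5p (0.881) and miR-151-5p (0.874). For miR-338-5p they were miR-151-3p (0.867), miR-92a-3p (0.818) and miR-350-5p (0.802), and for miR-219-2-3p they were miR-151-3p (0.792), miR-21-5p (0.780) and miR-350-5p (0.760). miR-219-5p came closest to miR-99a-3p (0.799), miR-142-3p (0.784) and miR-142-5p (0.709). miR-32-5p came closest to miR-345-3p (0.743), miR-92a-3p (0.731) and miR-146a-5p (0.711). These are descriptions over libraries with shared scaling. The median r over the 382 names was between -0.06 and -0.02, and the 95th percentile between 0.482 and 0.719. Without aged SAHA 1, r with miR-151-3p was 0.907 for miR-338-3p, 0.774 for miR-338-5p and 0.680 for miR-219-2-3p. For miR-219-5p it was then 0.734 with miR-99a-3p, 0.659 with miR-142-3p and 0.450 with miR-142-5p. For miR-32-5p it was 0.634 with miR-345-3p, 0.554 with miR-92a-3p and 0.501 with miR-146a-5p. That library held 2.74, 2.01 and 2.20 times the mean of the others for miR-142-3p, miR-142-5p and miR-146a-5p. With group means kept, r with miR-151-3p was 0.653 for miR-338-3p, 0.728 for miR-338-5p and 0.313 for miR-219-2-3p. miR-219-5p with miR-99a-3p then gave 0.539, and miR-32-5p with miR-345-3p gave r = -0.098. It rose only for miR-21-5p with miR-219-2-3p (0.819), miR-142-3p (0.7975) and miR-142-5p (0.775) with miR-219-5p, and miR-146a-5p with miR-32-5p (0.815).

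The seed of miR-32-5p is shared by 5 other names in the table, of which the abundant ones are shown for comparison, with the seed in capitals.

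miR-32-5p: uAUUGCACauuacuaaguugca
miR-25-3p: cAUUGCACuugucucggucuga
miR-92a-3p: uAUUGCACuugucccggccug
miR-92b-3p: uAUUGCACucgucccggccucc

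Mature miRNAs with 1 seed can bind largely the same target sites. In CA1 the group was made up mostly of miR-92b-3p, at 15098 CPM (85.4% of the summed level), with miR-92a-3p at 1798 CPM, miR-25-3p at 762 CPM, miR-363-3p at 1.254 CPM and miR-367-3p listed at 0. miR-32-5p contributed 0.0774%. Of these 5 names 3 were tested, and edgeR called 0 in each comparison, against the 2.16%, 4.32% and 13.9% of all names. None of the other 5 printed seeds is shared with another mature mouse miRNA in the RefSeq set used. That set is not complete, as it lacks miR-219-2-3p.

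Of 14 other miRNAs with a reported role in oligodendrocyte development or myelination, 13 were tested. Over all 509 names, edgeR called 2.16%, 4.32% and 13.9% for age, SAHA and aged SAHA against young vehicle. None of the 13 passed for age or SAHA, and 1 passed, higher, for aged SAHA against young vehicle. That was miR-27a-3p, at 570 ± 66.1 CPM in aged SAHA (SD, n = 6) and 488 ± 38.9 CPM for young vehicle (SD, n = 8), a log2 fold change of 0.22 ± 0.07 with an edgeR adjusted p of 0.0413, and 0.17 ± 0.07 with 0.0940 without aged SAHA 1. The median log2 fold changes of the 13 were -0.07, 0.07 and 0.01 in these 3 comparisons, beside -0.003, -0.008 and -0.03 over all names. miR-297c-5p was listed at 0. Of this list, miR-9-5p and miR-138-5p also belong to the neuron list used next, miR-145-5p to the endothelial and mural list and miR-204-5p to the choroid plexus list.

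Markers of other cells of the tissue were read beside the members, as summed CPM of small lists. The 9 neuron-enriched names summed to 75995 to 82797 CPM in aged SAHA libraries, 88986 to 95303 CPM in aged vehicle libraries and 88208 to 99234 CPM in young vehicle libraries, so the sum was lower in every aged SAHA library. It is led by miR-9-5p, with means of 36335 CPM in aged SAHA and 39102 CPM in aged vehicle, and miR-128-3p, with 25447 CPM in aged SAHA and 34553 CPM in aged vehicle. Against aged vehicle, 0 of the 9 names had a positive log2 fold change, and the median was -0.11. The smallest difference was that of the neuronal miR-124-3p. It averaged 5516 CPM in aged SAHA and 5551 CPM in aged vehicle, with edgeR adjusted p of 0.927. The 1 called name was miR-128-3p, which fell by 0.44 against aged vehicle (edgeR adjusted p = 0.00344) and by 0.46 against young vehicle (adjusted p = 0.000356), and by 0.49 and 0.50 without aged SAHA 1. The 5 members with at least 10 CPM summed to 3748 to 8122 CPM in aged SAHA, 4059 to 5638 CPM in aged vehicle libraries, and young vehicle libraries gave 3344 to 4513 CPM.

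The 4 names of microglia and blood myeloid cells summed to 356 to 767 CPM in aged SAHA, 370 to 529 CPM in aged vehicle libraries, and young vehicle libraries gave 309 to 407 CPM. miR-142-5p, which makes up most of that sum, rose in aged SAHA against young vehicle (0.49 ± 0.13, edgeR adjusted p = 0.0165), and also without aged SAHA 1 (0.29 ± 0.09, adjusted p = 0.0315). Its log2 fold change was 0.32 for age (edgeR adjusted p = 0.262) and 0.17 for SAHA (adjusted p = 0.625). Without aged SAHA 1 these were 0.32 (edgeR adjusted p = 0.0521) and -0.03 (adjusted p = 0.890). The 767 CPM was aged SAHA 1, at 2.03 times the mean of the other 18 libraries, next to 1.93 times for the summed members. In the same library the 4 endothelial and mural names stood at 1.72 times, the neuron list at 0.888, the 4 erythrocyte names at 0.954 and the 5 choroid plexus and ciliated epithelium names at 1.05. Its endothelial and mural sum of 60067 CPM ranked only 3rd. That sum reached 61119 CPM in another aged SAHA library and 65462.5 CPM in a young vehicle library. The last 3 lists named here, endothelial and mural, erythrocyte and choroid plexus, had 0 called names in the 3 comparisons. Over all names, 2.16%, 4.32% and 13.9% were called for age, SAHA and aged SAHA against young vehicle. With 4, 4 and 5 tested names, 0 calls do not show that these lists were unchanged. The same shares stand beside the called name of the neuron list and that of the myeloid list. The data hold no myelin mRNA, so the source of the members in oligodendrocytes was not checked here, and the part of these other cells in the members' differences was not tested.

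**Figure D5:**
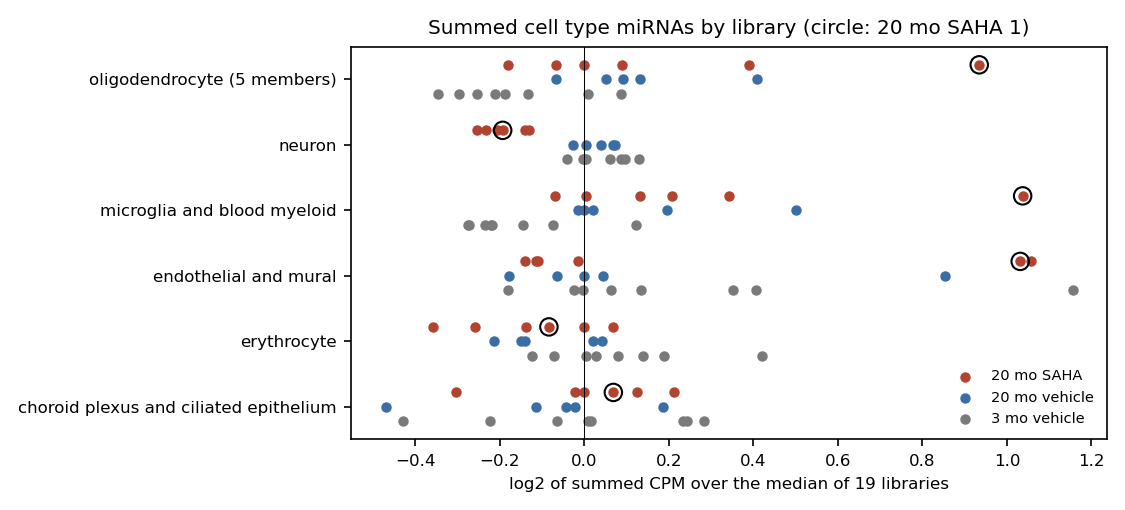
Log2 of the summed CPM of each cell type list in each library, relative to the median of the 19 libraries, coloured by group, with aged SAHA 1 circled. The circled library is highest for the oligodendrocyte list of 5 members and for the microglia and blood myeloid list, and all 6 aged SAHA libraries are lowest for the neuron list.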

How the data were processed

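Libraries were made from total RNA of microdissected CA1 with Illumina TruSeq reagents, per the labels' protocols. The deposited values are whole-number counts per mature miRNA name and library, not normalized by the authors. Per the submitters' processing notes the tools were CASAVA 1.8.2, cutadapt, STAR and HTSeq, with mm10; settings were not given. The 4 HTSeq summary lines were 0 in every library and were left out. Reads without molecular identifiers are not independent molecules. The 2 loci of miR-26a-5p did not keep it from being counted (7.57% of all counts), so names with several loci were not dropped. Capture of different small RNAs by a library kit is uneven, which touches levels between miRNAs more than one miRNA between groups.

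Members, lists and tests were chosen with earlier results of these data known. Counts were filtered (filterByExpr, minimum count 10, minimum total 15), scaled by TMM and tested with edgeR 4.0.16 (quasi-likelihood, robust, 1 term per group, R 4.3.3), with Benjamini-Hochberg adjustment over all 509 names and a threshold of 0.05. No pair of libraries of a group agreed within counting noise (53 pairs, chi-square per degree of freedom 24.7 to 294). Ratios were log2 of counts plus 0.5, tested by exact two-sided permutation; correlations used 100000 permutations. The miRNAs named are all members, called members of the lists, every seed partner and the 3 closest names per member. Alternatives were other scalings and filters, DESeq2 1.42.0, limma-voom (limma 3.58.1), only the groups compared, summed arms, a block for the replicate number, and leaving out each library. Scripts were tested on simulated data.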

Additional observations from a re-analysis of the deposited data

Results flagged for a closer look

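Of 33 groups of values screened for a single distant library, 6 held one; chance alone gives about 1 in 20. Aged SAHA 1 was far from its group for 3 members. Its miR-219-5p was at 172.6 CPM, with the other aged SAHA libraries at 46.6 to 78.3 CPM. Its miR-338-3p was at 6412 CPM, with the others at 2930 to 4200 CPM, and its miR-32-5p at 24.08 CPM, with the others at 11.4 to 16.1 CPM. Young vehicle 5 had 251.6 CPM of miR-338-5p, with the other young libraries at 207 to 228 CPM. Young vehicle 6 had a log2 ratio of miR-338-3p to miR-338-5p of 4.029, with the others at 3.62 to 3.78. Aged vehicle 5 had a log2 ratio of miR-219-2-3p to miR-219-5p of 3.494, with the others at 3.34 to 3.37. What set these libraries apart was not tested.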

How the results depend on the processing

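Over 519 alternative values for the fold changes of members, 489 kept their sign and their side of the threshold, 9 lost the call, 9 gained one and 12 turned in sign. These values include fits without a library of the group not compared, which can hardly move a fold change. Most main values were not calls either, so the count of kept values does not measure how firm the results are. Members called for age were 0 with all libraries and 1 (miR-338-3p) when only the groups compared were fitted or when aged SAHA 1 and young vehicle 6 were left out. For SAHA they were 0, but 1 with DESeq2 and 0 to 1 with single libraries left out. For aged SAHA against young vehicle they were 2, but 4 with DESeq2, 1 with limma-voom, 1 without that pair of libraries and 1 to 3 with single libraries left out. The log2 fold change under SAHA turned for miR-338-3p (-0.063 with limma-voom, -0.149 without the pair) and miR-338-5p (-0.0502 and -0.0964); with single libraries left out it ran from -0.149 to 0.135, from -0.0958 to 0.114 and, for miR-219-1-3p, from -0.172 to 0.0278. The numbers of all names called moved with the tool: for age 11 here, 20 with DESeq2, 26 with limma-voom, 19 with only the groups compared and 18 without the pair; for SAHA 22 here, 46 with DESeq2, 47 with limma-voom, 10 with arms summed, 37 without the pair and 11 to 33 with single libraries left out; for aged SAHA against young vehicle 71 here, 103 with DESeq2, 83 with limma-voom and 53 with the replicate number as a block. The stricter CPM filter removed miR-219-1-3p and gave no value for it. The cause of these changes was not tested.

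Few same-numbered libraries of different groups deviated together. Pairs with r over 0.1 were 1 of 5, 1 of 5 and 2 of 6 for age, SAHA and aged SAHA against young vehicle. In the same order, 1 of 10, 0 of 10 and 5 of 12 libraries correlated best with their own number, and the highest r was 0.326, in the last comparison. So few pairs cannot decide whether the numbers pair libraries, and the main tests treated the libraries as unpaired. With the replicate number as a block, members called were 0, 0 and 1, names called under SAHA were 8, miR-338-3p and miR-338-5p under SAHA were at -0.0100 and -0.0112, and miR-32-5p in aged SAHA against young vehicle was 0.51 with an edgeR adjusted p of 0.0911.

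For the ratios, group medians in place of means gave adjusted exact p above 0.05 in all 9 tests of the 3 arm and copy ratios: for miR-338-3p to miR-338-5p 0.21 (0.176) for age and 0.19 (0.168) between aged SAHA and young vehicle, and for miR-219-1-3p to miR-219-2-3p -0.36 (0.168) and -0.87 (0.0599). The small differences in miR-219-2-3p to miR-219-5p turned to 0.0302, 0.0646 and 0.0948 with medians, and to 0.0037 under SAHA with a pseudocount of 5. With single libraries left out, the log2 difference for the miR-338 arms ran from 0.18 to 0.25 for age, from -0.0495 to 0.0163 for SAHA and from 0.16 to 0.24 for aged SAHA against young vehicle. For miR-219-2-3p to miR-219-5p it ran from -0.18 to -0.0016, from -0.14 to 0.13 and from -0.228 to 0.0384 in the same order, and for miR-219-1-3p to miR-219-2-3p from -0.51 to -0.35, from -0.60 to -0.34 and from -1.04 to -0.79. Correlations lost without the 2 farthest libraries were at r of 0.290, 0.479 and 0.367 (miR-219-2-3p with miR-219-5p, miR-338-3p and miR-338-5p), 0.574, 0.452 and 0.172 (miR-219-5p with miR-338-3p, miR-338-5p and miR-32-5p) and 0.404 and 0.423 (miR-32-5p with miR-338-3p and miR-338-5p). With group means removed, miR-219-5p with miR-32-5p was at 0.339. Counting limits miR-32-3p, miR-219-1-3p and miR-32-5p most.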
